A study of Homo sapiens with 2 samples.

Results

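The Krüppel-like factor (KLF) and specificity protein (SP) genes encode transcription factors that bind GC-rich promoter elements through C2H2 zinc fingers. Their N6-methyladenosine (m6A) sites were described in the messenger RNA of HEK293T cells. The 9 genes KLF3, KLF5, KLF6, KLF10, KLF11, KLF13, KLF16, SP1 and SP3 were given by name, and the sites were all entries carrying one of these gene names. All 9 genes had entries. Replicate 1 listed 129 of their sites among 72449 in all, and replicate 2 listed 144 among 81554. In both lists 115 sites were present, among 60462 shared sites in all, and 158 were in either.

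The samples were 2 libraries of 1 group: wild-type HEK293T cells, a widely used line of human embryonic kidney origin, labelled as day 0 and GLORI-treated, with no second genotype, treatment or time. In GLORI, glyoxal and nitrite turn unmethylated adenosine into inosine, which is read as G, whereas m6A is still read as A, so the level of a site is the percentage of A among its A and G reads. Replicates 1 and 2 used mRNA bound to oligo(dT) beads, 100 to 200 ng each per the labels. The labels do not say whether separate cultures were used, so the spread between them may be technical.

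In mRNA, m6A is placed on nascent transcripts by a methyltransferase complex built around METTL3 and METTL14, and is bound by YTH-domain proteins that affect the lifetime of the transcript. Within the family, SP1 is a broadly expressed activator, and SP3 binds the same elements and can activate or repress. KLF3 is a repressor that recruits CtBP proteins. KLF10, KLF11, KLF13 and KLF16 can recruit the SIN3A corepressor, KLF5 is mostly an activator, and KLF6 is known as a growth-regulated factor and tumour suppressor.

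Only sites above limits set by the authors were listed. Over all entries the fewest reads were 15, the fewest A reads 5 and the lowest level 10.0%, so a site read 15 times is listed only from 33.3% upwards, and an unlisted adenosine gives no bound. Reads per site in these 9 genes ran from 15 to 384, and all their entries summed to 8509 reads in replicate 1 and 11299 in replicate 2. The authors' conversion fraction, the share of adenosine turned to G, was 95.5% to 97.6% in these genes. Its median over them was 96.9% in replicate 1 and 96.6% in replicate 2, against 97.6% in each over all named genes. The part of conversion in the levels was not tested. Of the cell markers looked up, VIM, NEFM and PAX2 had shared sites, NES and LHX1 were not listed, and neither were EPCAM, PTPRC, COL1A1 or PECAM1. The lists give methylation and not expression, so they do not check the cell type.

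A sequence at a listed site could be read at 1 place in these genes, because RefSeq's start windows of GRCh38.p14, which end 50 bases into the transcript, were the sequence at hand. Position 53380176 of chromosome 12 (plus strand) is the annotated first nucleotide of SP1. The site is shown because it lies at this annotated start, and whether SP1 transcripts began there in these cells was not tested. Its surroundings are chr12:53380161-53380190 on the plus strand, with the listed adenosine in capitals.
SP1 start: tgctccctcctccttAcccccccctccctg
This adenosine was methylated at 25% in replicate 1 (18 of 72 reads) and 17.8% in replicate 2 (16 of 90 reads). In the whole series 320 protein-coding genes had a shared site at their annotated first nucleotide, with a median level of 29.5%. The adenosine next to the cap can also carry m6Am, a related methylation, and which of these was read here was not tested. On the same strand 1052 shared sites of the series fell within such start windows, and the base was A at all 1052.

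These genes carried more listed sites than the median gene and a wide span of levels. The median was 12 shared sites per gene, against 4 over the 9521 named genes with a shared site (quartiles 2 and 8), and 8 of the 9 genes had more than 4. KLF13 had 23, SP1 21, KLF11 15, KLF10 13, SP3 12, KLF6 11, KLF16 10, KLF5 6 and KLF3 4. The median of the gene means was 50.5%, against 46.6% over all genes (quartiles 33.3% and 58.8%), and 7 of the 9 lay above 46.6%. Depth was also higher: median reads per shared site were 53 in replicate 1 and 60 in replicate 2, against 42 and 49 over all shared sites, and the authors' coverage per gene had medians of 32.2 and 36.9, against 29.9 and 33.8. Its part in the number of sites was not tested. No test was made of these medians, since the genes were chosen with earlier results known and genes are not replicates.

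The order of the mean levels ran from SP3 to KLF16. SP3 averaged 73.8% ± 1.43, KLF11 63.7% ± 1.28, KLF3 55.1% ± 2.57, KLF13 55% ± 1 and KLF10 50.5% ± 1.04. KLF5 averaged 48.6% ± 1.88, KLF6 48.3% ± 1.13, SP1 45.2% ± 0.546 and KLF16 40.3% ± 1.29. The errors are counting standard errors of the mean over shared sites, with both libraries counted as 1 sample, and cover read sampling only. Of the 8 steps between neighbours in this order, 5 exceeded the 95% counting interval. The steps from KLF3 to KLF13 (0.0952 points, interval -5.30 to 5.49), KLF10 to KLF5 (1.84, -2.39 to 6.06) and KLF5 to KLF6 (0.352, -3.95 to 4.66) did not. Among the 5, the step from KLF13 to KLF10 turned at 50 reads in each library (54.1% and 58.2%), at a level of at least 20% (58.9% and 69.6%) and in replicate 2's own list (50.3% and 50.4%). It also turned with reads summed over the sites of a gene (57.5% and 60.0%). The step from KLF6 to SP1 turned at a level of at least 20% (55.6% and 63.8%). The most methylated genes were among the shallow ones: authors' coverage in replicate 1 was 23.3 in SP3 and 22.9 in KLF11, against 77.0 in SP1 and 73.9 in KLF16. KLF3, the shallowest at 20.3, averaged 55.1% and came next after SP3 and KLF11 in the order. KLF5, with 24.4, averaged 48.6%, and KLF10, with 66.4, averaged 50.5%, a step that did not exceed the counting interval. The part of depth in the order was not tested; with fewer reads only the more methylated sites can be listed.

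**Figure D1:**
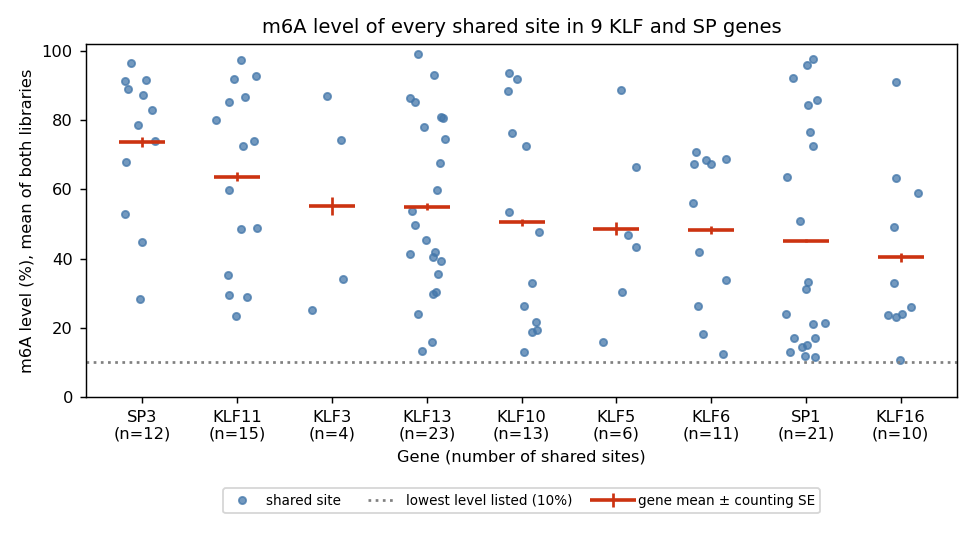
m6A level in percent of each of the 115 shared sites (blue points, mean of both libraries) by gene, from the highest to the lowest gene mean; red bars are gene means with counting standard errors and the dotted line is the 10% limit of the lists. Sites within most genes span from under 30% to over 80%, and the gene means fall between 40.3% and 73.8%.

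Within genes the spread of sites was far larger than these errors. The standard deviation over the sites of a gene ran from 21.4 points in SP3 to 32.8 in SP1. Of the 115 shared sites, 29 (25.2%) had a level of at least 80%, against 19.8% over all shared sites, and 16 (13.9%) lay under 20%, against 15.2%. The sites of at least 80% were found in 8 of the 9 genes, all but KLF6, with 6 each in KLF11, KLF13 and SP3. SP1 held 7 of the 16 sites under 20%. Among sites read at least 50 times in each library, 24.6% of 57 had a level of at least 80%, against 15.6% of all 24853 such sites of the series. At this depth 24.6% also lay under 20%, against 27.0%.

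SP1, the archetypal GC-box activator, had 30 listed sites and the most reads, and its 21 shared sites had levels from 11.4% to 97.8%. In a stretch of 1320 bases, chromosome 12 from 53382177 to 53383496, it held 22 listed sites, 16 of them shared. There, position 53382966 was read as A in 36 of 37 reads in replicate 1 and 59 of 60 in replicate 2, and position 53383327 in 118 of 125 and 131 of 146. Both were almost fully methylated in both libraries. Position 53382992, 26 bases after the first of them, had 20.4% (21 of 103) and 22% (27 of 123). The most read site of SP1, position 53383496, was weakly methylated, with 28 of 246 and 38 of 309 reads (11.8%, 95% Wilson interval on summed reads 9.46 to 14.9). The highest well-read site lay far downstream at position 53411062, with 98.4% (122 of 124) and 93.7% (133 of 142), and its neighbour at position 53411263 had 84.3% and 87.5%. The lowest shared site, position 53382488, had 11.3% and 11.5%.

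SP3, the paralogue of SP1, had 14 listed sites and the highest mean of the 9 genes, but fewer reads at each. Its shared sites ran from 28.2% to 96.5%, and 6 of 12 were at least 80%. In 890 bases of chromosome 2 (minus strand), from 173954932 to 173955821, lay 11 of the 12 shared sites. Position 173955678 had 96.2% (51 of 53) and 96.8% (60 of 62), the highest level, and position 173955821, the most read, had 94.3% (50 of 53) and 88.1% (74 of 84). These were the only sites of SP3 with at least 50 reads in each library. The lowest of its shared sites, position 173955173, had 13 of 38 and 10 of 45 reads, which is 34.2% and 22.2%. Median reads per shared site were 32.5 and 46.5 in SP3, against 111 and 134 in SP1. At the SP3 median in replicate 1 the lowest level that could be listed was 15.4%, above the lowest shared site of SP1. At the SP3 median in replicate 2 a site as weak as that could be listed. The remaining shared site, position 173910039, had 78.9% and 95.7% on 19 and 23 reads.

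KLF10 and KLF11, both known as TGF-beta-inducible early genes, differed in depth and in mean level. KLF10 had 13 shared sites in 1982 bases of chromosome 8 (minus strand). Its position 102651312 had the deepest coverage of all the sites described here and was almost fully methylated, with 247 of 265 reads in replicate 1 and 361 of 384 in replicate 2 (93.6%, interval 91.5 to 95.3). Positions 102651643 and 102650330 were also high in both libraries, at 91.7% and 92.4%, and at 88.3% and 88.5%. At the other end, position 102650132 had 10.9% (12 of 110) and 15.1% (18 of 119).

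KLF11 had 15 shared sites, 12 of them in 662 bases of chromosome 2 (plus strand) from 10047854 to 10048515. Position 10052565 was the highest, with 35 of 37 and 35 of 35 reads, and position 10052573, 8 bases on, had 29.8% (14 of 47) and 17.0% (8 of 47). Position 10048214 had 81.1% (43 of 53) and 92.5% (49 of 53), and position 10048330, the most read, had 47.5% and 50%. No shared site of KLF11 lay under 20%, whereas 3 in KLF10 did; at the median depth of KLF11, 40.0 reads in replicate 1, the lowest level that could be listed was 12.5%.

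KLF13, studied as a regulator of CCL5 in T lymphocytes, had the most shared sites, and they fell in 3 separate stretches. The largest, chromosome 15 from 31372040 to 31374273, held 20 listed sites with a mean of 62.9% over the 14 shared ones. Position 31372557 in it had 97.9% (47 of 48) and 100% (53 of 53), position 31373102 had 98.3% and 87.7%, and position 31373546, the most read, had 87.4% (139 of 159) and 85.6% (137 of 160). The stretch from 31375901 to 31377433 was lower, with a mean of 35.6% over 5 shared sites and the lowest site of the gene, position 31375901, at 14.1% and 12.3%. The stretch nearest the annotated start, 400 to 657 bases from it, held 4 shared sites from 40.3% to 74.5%. KLF13's annotated span goes on for 58232 bases beyond the last site listed under its name.

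KLF16, a close relative of KLF13, had the lowest mean level, and the second-highest authors' coverage after SP1. Only position 1854309 of chromosome 19 (minus strand) exceeded 80%, with 40 of 45 and 54 of 58 reads. Position 1854304, 5 bases on, had 63.0% (29 of 46) and 54.8% (34 of 62). The highest site with at least 50 reads in each library, position 1854397, had 67.6% (50 of 74) and 59.2% (45 of 76). The most read site, position 1854574, had 23.7% (32 of 135) and 23.8% (34 of 143), and the lowest, position 1852620, lay at 10.7% and 10.9%, 221 bases from the annotated gene end. At the sites of KLF16 with at least 50 reads in each library the mean was 30% (6 sites), and in SP1 43.6% (19 sites).

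KLF6 had 11 shared sites, all between 12.3% and 70.9%, with medians of 96 and 101 reads. Most lay in 343 bases of chromosome 10 (minus strand) from 3781782 to 3782124, which held 8 shared sites. Its highest shared site, position 3781858, had 63.6% (91 of 143) and 78.1% (121 of 155). Its lowest shared site, position 3785109, 100 bases from the annotated start, had 11.0% and 13.6%. Replicate 1 alone also listed position 3781782, at 81.2% (13 of 16 reads). The most read, position 3779328, had 68.2% (103 of 151) and 66.2% (102 of 154).

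KLF5 and KLF3 had few sites. KLF5 had 6 shared sites, from 15.8% to 88.8%. Its only site with 50 reads in each library, position 73062041 of chromosome 13, had 46.6% (27 of 58) and 40.3% (29 of 72). Replicate 2 alone listed 6 more sites of KLF5, so its count was 12 in replicate 2 and 6 in replicate 1. KLF3 had 4 shared sites. Position 38697196 of chromosome 4 was the highest and the most read, with 86.5% (32 of 37) and 87.7% (50 of 57), and position 38688847 was the lowest, with 21.6% (8 of 37) and 28.6% (16 of 56).

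Sites lay in stretches and close neighbours could differ widely in level, here and over all named genes. With a new stretch begun at gaps over 1000 bases, 130 of the 158 listed sites (82.3%) lay in 11 stretches of at least 4, against 74.4% over all named genes. Of the 115 shared sites, 43 (37.4%) had another shared site of the gene within 30 bases, against 33.3% over all named genes. Adjacent shared sites within 30 bases formed 25 pairs with a median difference of 22.4 points, against 23.9 points over 10496 such pairs in all named genes. In 16 of the 25 pairs (64.0%) the Wilson intervals did not overlap, against 61.4% of all such pairs. In 7 (28.0%) the levels differed by over 50 points, against 19.8%. The greatest difference was 76.6 points, between positions 53382966 and 53382992 of SP1. In KLF11 it was 73.9 points across 8 bases, and positions 10048214 and 10048219, 5 bases apart, had like levels of 86.8% and 85.3%. Neighbouring sites can share reads, so their sites are not independent.

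**Figure D2:**
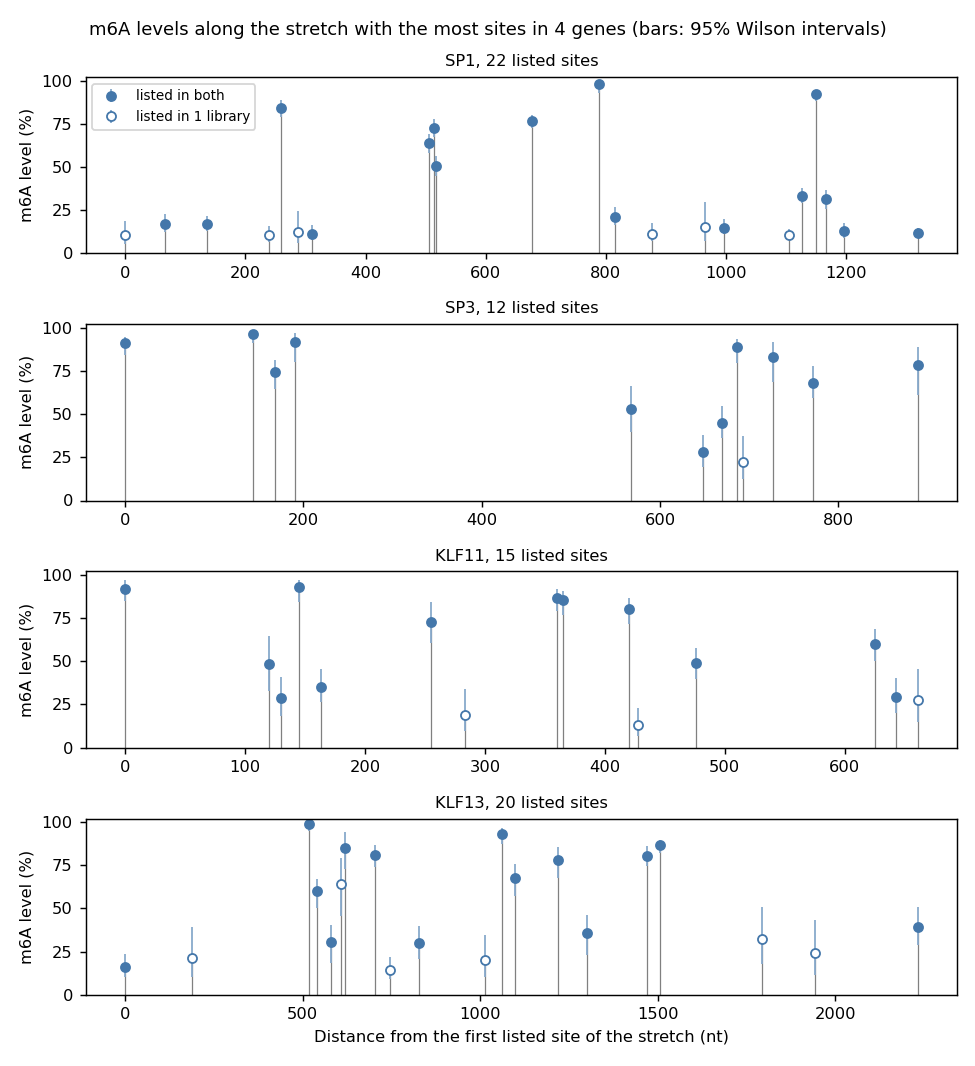
m6A level in percent against distance in bases from the first listed site, for the stretch with the most sites in SP1, SP3, KLF11 and KLF13; filled points are sites in both lists (mean level), open points sites in 1 list, and bars 95% Wilson intervals. High and low sites alternate over short distances, as at 97.8% and 21.2% in SP1, and most sites in 1 list only are low.

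Along the annotated gene, introns included, 11 of the 115 shared sites (9.57%) lay in the last 10% of the span, against 44.1% of 52117 shared sites in protein-coding genes. Of the 11, 9 were in KLF16. In SP1 the stretch of 22 sites lay 2001 to 3320 bases from the annotated start of a gene of 36271 bases, in SP3 the stretch of 12 lay 9881 to 10770 bases from the start of 64928, and in KLF11 the stretch of 15 lay 4304 to 4965 bases from the start of 11287. Exons, UTRs and coding positions were not analysed here, so these are positions in the gene and not in the mRNA.

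The libraries were then compared at each shared site. Fisher's exact test on the A and G counts, two-sided and adjusted over all 60462 shared sites, called 0 of the 115 sites (background 0% called). At an unadjusted p under 0.05 it called 4 of the 115 (3.48%), against 3.06% of all shared sites. A chi-square test scaled by the dispersion of all sites also called 0 after adjustment, and 8 (6.96%) before it, against 5.01%. The 4 sites were position 3781858 in KLF6 (exact p = 0.00717), positions 31327382 and 31373102 in KLF13 (exact p = 0.0286 and 0.0294) and position 53382244 in SP1 (exact p = 0.0317). The adjusted p was 1 at each. The largest difference, 35.2 points at position 31327382, rested on 11 of 19 and 5 of 22 reads. Levels differed by a median of 5.26 points, against 4.95 over all shared sites. The mean chi-square of the difference was 1.08 in these genes and 0.936 over all, where read sampling alone gives about 1. At sites in both lists the libraries therefore showed no more spread than read sampling, and they were counted as 1 sample. Sites in 1 list only, 11987 of replicate 1 and 21092 of replicate 2 over the series, could not enter the comparison. Leaving them out can narrow the differences, and 0 calls at these depths do not show that the levels are equal.

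**Figure D3:**
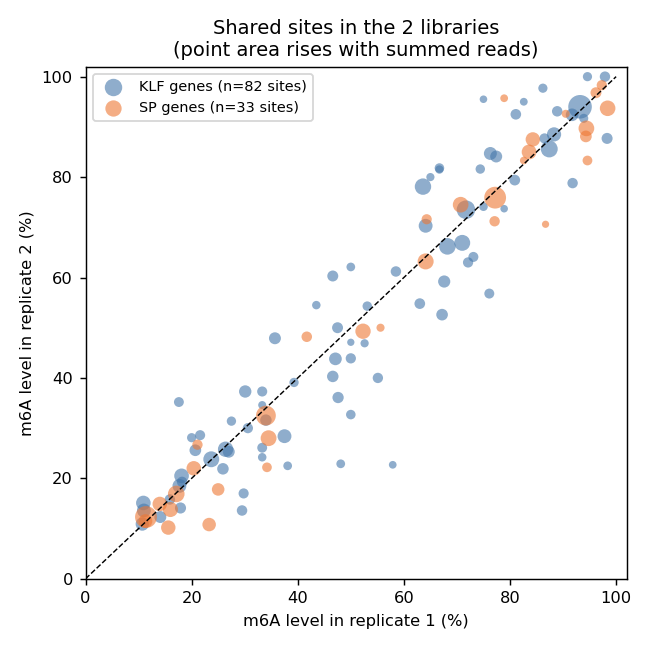
m6A level in percent in replicate 1 (x axis) and replicate 2 (y axis) for the 115 shared sites, blue for KLF and orange for SP genes, with point area rising with summed reads and the dashed line at equality. The points follow the line, and the widest departures are small points, such as the KLF13 site at 57.9% and 22.7%.

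Replicate 2 listed 89.1% of the 129 replicate 1 sites (95% Wilson interval 82.6 to 93.4), and replicate 1 listed 79.9% of the 144 replicate 2 sites (72.6 to 85.6). Over the whole series these shares were 83.5% and 74.1%. The 14 sites in replicate 1 only had a median level of 19.8%, and the 29 in replicate 2 only 18.9%. Of these 43 sites, 27 lay within 5 points of the lowest level that a listed site of their depth can have. Of the 115 shared sites, 6 did so in both libraries at once. That rule is stricter, so these counts do not compare like with like. The share among all sites of the series in 1 list only was not computed. In SP1, 7 sites were in replicate 2 only, among them position 53383281 with 33 of 316 reads (10.4%). An entry missing from 1 list is therefore not a measured absence.

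**Figure D4:**
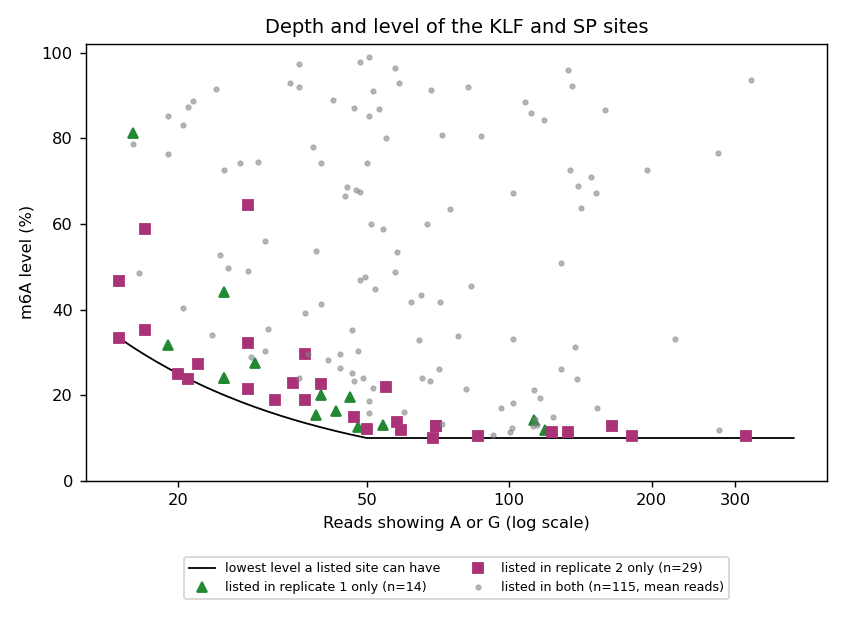
m6A level in percent against the reads showing A or G (log axis) for sites in replicate 1 only (triangles), in replicate 2 only (squares) and in both (grey points, mean reads); the line is the lowest level a listed site can have, 5 A reads and 10%. Of the 43 sites in 1 list, 27 lie within 5 points of the line.

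The other genes of the family split into listed and unlisted ones. Of 18 further KLF and SP genes, 9 had shared sites and 9 had no entry (KLF1, KLF2, KLF8, KLF14, KLF17, KLF18, SP5, SP6 and SP7). The 9 listed had a median of 5 sites and a median gene mean of 53.1%, at a median authors' coverage of 12.2 in replicate 1. KLF9, a relative of KLF13 and KLF16, had 16 sites at 53.1% ± 0.877. SP4 had 4 sites at 83.7% ± 2.99 with coverage of 10.4 and 11.8, and SP2 had 6 at 27.4% ± 2.15 with 30.3 and 35.2. KLF12 had 7 sites at 56.1%, SP9 9 at 50.7%, KLF4 5 at 63.4%, KLF15 5 at 56.2%, KLF7 4 at 51.7% and SP8 5 at 45.9%.

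Cofactors and regulators of the family were listed in 11 of 13 cases, with a median of 17 sites and a median level of 45.5%. EP300 and CREBBP, acetyltransferase coactivators, had 36 sites at 56.4% ± 0.724 and 24 at 68.7% ± 1.13. The corepressor genes SIN3A, SIN3B and CTBP1 had 17 sites at 54.6%, 20 at 41.2% and 18 at 39.0%, and HCFC1 had 20 at 45.5%. CTBP2 had 3 sites, HDAC1, HDAC2 and SAP30 had 2 each, and FBXW7 had 5; KAT2B and WWP1 had no entry. Among 8 other C2H2 factors that bind GC-rich sites, ZBTB7A had 8 sites at 64.1%, MAZ 7 at 41.4%, VEZF1 6 at 55.9% and EGR1 1 at 65.0%, while EGR2, EGR3, EGR4 and WT1 had no entry. None of these lists was tested against the others.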

How the data were processed

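The authors deposited 1 list of sites for each of the 2 libraries. Per the file headers, a site has a count of A plus G reads, a count of A reads and their ratio as a fraction, besides a raw and an adjusted p-value, and each gene has a conversion fraction and a coverage signal. Build GRCh38 and the tools STAR, Bowtie, SAMtools and Trim Galore 0.6.6 are named in the submitters' processing notes. For the site caller, strand setting and molecular identifiers, the sources used here say nothing. The largest deposited adjusted p-value at a site of the 9 genes was 0.00302.

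From the deposited counts, levels were computed per library and averaged over both. Shared sites have the same chromosome, position and strand. Fisher's exact test used scipy 1.17.1 with Benjamini-Hochberg adjustment over all shared sites, and Wilson intervals used statsmodels 0.14.6. The test was tried on simulated counts with large changes only, at sites deeper than most sites of these genes. The simulation therefore does not show what the test can detect at their median depths of 53 and 60 reads. Intervals cover counting error only. Gene bounds and start windows came from NCBI RefSeq, GRCh38.p14, in which all 9 genes were found and 7 had a start window. No genome was used, so the planned shares by UTR and by sequence context were not computed. RefSeq names 5 pseudogenes, antisense or divergent genes of these 9 genes (KLF3P1, KLF3P2, SP3P, KLF3-AS1 and KLF11-DT), and 0 had a listed site. The genes and lists were chosen with earlier results of these data known. For each gene the text names its most read shared site and its highest and lowest shared sites with at least 50 reads in each library (20 for KLF3); other sites were named after their values were seen.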

Additional observations from a re-analysis of the deposited data

Results flagged for a closer look

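A pair of sites lay inside the annotated spans of these genes but carried no gene name in the lists, so they were outside the 158 sites described above. Inside the span of KLF13, position 31400500 of chromosome 15 (plus strand) had a level of 19.2% in replicate 1 (5 of 26 reads) and 21.2% in replicate 2 (7 of 33 reads). Inside that of KLF16, position 1875787 of chromosome 19 (minus strand) had 21.4% (9 of 42 reads) and 14.3% (5 of 35 reads). They are given because they lie in entries that the description by gene name does not use; every listed site has at least 5 A reads, so their levels were not tested against a limit.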

How the results depend on the processing

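The shared site count moved from 115 by over 1.5 times only at a minimum of 50 reads in each library, which left 57. It was 91 at 30 reads, 95 at a level of at least 20%, and 158 with sites of either list; the single lists gave 129 and 144. The median of the gene means, 50.5%, was 48.3% at 30 reads, 49.6% at 50 reads (8 genes, without KLF3), 58.9% at a level of at least 20%, 47.8% with sites of either list, 57.5% with reads summed over the sites of a gene, and 50.3% in each library's own list. Fisher's test called 0 sites at 30 and 50 reads too. With sites of either list all 9 gene means were lower, KLF5 at 36.2%, SP1 at 35.6% and KLF16 at 31.6%. At 50 reads the mean of SP3 was 93.9% on 2 sites. Without its site at the first nucleotide SP1 averaged 46.4%. Without KLF13, 12% of sites lay in the last 10% of the gene. The alternatives for KLF13, for sites of at least 50 reads by level and for the SP1 start were chosen after seeing the data. No paired analysis was possible because there is 1 group. The alternatives for the share of sites in the UTR and in a sequence context were not run, since no genome was used.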
